A study of Mus musculus with 9 samples.

Results

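The 41 genes described here encode the proteins that copy chromosomal DNA, supply its building blocks and carry a cell into S phase. They were chosen by gene symbol for these roles, with earlier results of these data known, and all 41 were found among the 21873 genes of the liver mRNA table. In 8 role groups they cover the Mcm2 to Mcm7 helicase ring, its loading factors, its activators, the sliding clamp and clamp loader, the polymerases and primase, the proteins that bind single strands and join Okazaki fragments, nucleotide supply, and S-phase entry.

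Livers came from 9 male C57BL/6 mice, 3 in each group, which were 8 weeks old at the start. The TAA group was injected intraperitoneally with thioacetamide, a hepatotoxin that causes fibrosis on repeated dosing, every 3 days for 8 weeks. The control group (NS) received normal saline on the same schedule. The recovery group received TAA for 8 weeks and was then left without injections for another 8 weeks, so its mice were 8 weeks older at collection than those of the other groups, with no saline mice of the same age among those analysed here. The control and TAA livers were taken 3 days after the final injection. Whole liver was sequenced, so that fewer cells of a type and less RNA per cell cannot be told apart.

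Before a cell can replicate, the origin recognition complex, Cdc6 and Cdt1 load the ring of Mcm2 to Mcm7 onto DNA in an inactive form. At S-phase entry, cyclin E with Cdk2 and the Cdc7 kinase promote the joining of Cdc45 and the GINS complex to the ring, which opens the DNA for the polymerases. Many of these genes are transcribed under the control of E2F factors when the retinoblastoma family of repressors lets go, and adult hepatocytes are largely quiescent and re-enter the cycle after injury.

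Promoter windows from RefSeq (GRCm38.p6, 250 bases before to 50 bases after the gene start) were found for 33 of the 41 genes, of which 5 had more than 1 start, for 39 windows in all. A gene was counted once, with a match in any of its windows. The windows were searched on both strands for 4 forms of the E2F motif, TTTCCCGC, TTTCGCGC, TTTGCCGC and TTTGGCGC, which can overlap one another on opposite strands. At least 1 of them was present in 14 of the 33 genes (42.4%), against 2.61% of all 27025 genes with a window and 4.52% of 10991 tested genes with one. The letters CCAAT were present in 20 of the 33 genes (60.6%), against 41.1% of all genes and 42.8% of tested genes. The CHR letters TTTGAA or TTTCGAA, known from promoters of mitotic genes, were present in 6 of 33 (18.2%), against 20.9% of all genes and 15.7% of tested genes. A match is a description of the sequence and not evidence that a factor binds there.

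Stretches of 60 bases are shown for Mcm5 and Mcm6, the ring subunits with the greatest change, and for Cdc6, Uhrf1 and Mcm10, which were chosen after their values were seen. The stretch of Mcm5 is chr8:75109330-75109389 on the + strand and that of Mcm6 is chr1:128359782-128359841 on the - strand. Those of Cdc6 and Uhrf1 are chr11:98907987-98908046 and chr17:56304102-56304161, both on the + strand. The first capital letter lies 153 bases before the RefSeq start of the window in Mcm5, 110 in Mcm6, 138 in Cdc6 and 185 in Uhrf1. For Uhrf1 this start is the second of 2, lying 976 bases after the first, whose window held no E2F match. In GENCODE M21, Cdc6 and Uhrf1 begin upstream of the stretches shown, which overlap no exon there. Capitals mark every E2F match on either strand, with overlapping matches run together. The Mcm10 window held no E2F match, and its stretch, chr2:5012856-5012915 on the - strand, shows in capitals the CCAAT letters that begin 98 bases before the start.
Mcm5: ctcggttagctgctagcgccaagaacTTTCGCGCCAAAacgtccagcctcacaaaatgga
Mcm6: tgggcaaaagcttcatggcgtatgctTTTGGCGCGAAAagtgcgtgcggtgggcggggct
Cdc6: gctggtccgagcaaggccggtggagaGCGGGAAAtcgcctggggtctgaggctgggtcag
Uhrf1: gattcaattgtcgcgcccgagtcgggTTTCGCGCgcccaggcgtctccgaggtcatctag
Mcm10: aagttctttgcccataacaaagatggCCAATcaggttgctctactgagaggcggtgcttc

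Most replication genes were higher in TAA-fibrotic livers and lower again after TAA was withdrawn. With differentially expressed genes (DEGs) defined by an adjusted p under 0.05 and a fold change of at least 2 (limma, Benjamini-Hochberg adjustment over 14094 tested genes), 25 of the 41 rose with TAA against the control and 1, Mcm10, fell. Of all tested genes, 17.0% were DEGs in the higher direction and 8.02% in the lower direction. From TAA to recovery, 27 of the 41 fell and Mcm10 alone rose, beside 14.3% of all tested genes lower and 7.12% higher. The 25 genes that had risen were all among the 27 that fell. Both comparisons use the same TAA libraries, so that these counts are not independent.

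The counts of DEGs, of these genes and of all genes alike, moved with the scaling between libraries. With FPKM as deposited, 32 of the 41 rose with TAA and 36 fell in recovery, beside 31.1% of all tested genes higher and 2.99% lower with TAA, and 26.5% lower and 2.90% higher in recovery. With FPKM rescaled to equal sums, 34 rose and 38 fell, beside 38.9% higher and 2.35% lower with TAA, and 34.5% lower and 2.17% higher in recovery. With quantile normalization, 21 rose and 26 fell, beside 10.9% higher and 9.61% lower with TAA, and 9.78% lower and 8.50% higher in recovery.

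The median log2 fold change of the 41 genes was 1.20 for TAA against control, where that of all tested genes was 0.02. It was -1.37 for recovery against TAA, beside -0.01 for all tested genes. The scaling used here by itself holds the median of all tested genes near 0. With FPKM as deposited, that median was 0.63 for TAA against control and -0.55 for recovery against TAA. The medians of the 41 genes were then 1.80 and -1.91. Values are on the scale of log2(scaled FPKM + 0.1), where scaled FPKM are the deposited fragments per kilobase and M mapped fragments divided by a size factor per library, and the added 0.1 draws the changes of low genes towards 0. By adjusted p alone, 30 of the 41 genes exceeded the control level in the TAA mice and 3 were under it, beside 28.2% and 26.3% of all tested genes. By the same criterion, recovery against TAA gave 35 lower and 2 higher, beside 26.0% and 24.5%. Adding 1 in place of 0.1 to the FPKM left 14 DEGs of 41 higher with TAA and 17 lower in recovery, where 6.31% of all tested genes were higher and 6.31% lower with TAA, and 5.04% lower and 5.31% higher in recovery. The p-values test a difference between groups of 3 mice, against a variance between mice that limma moderates over all tested genes.

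**Figure D1:**
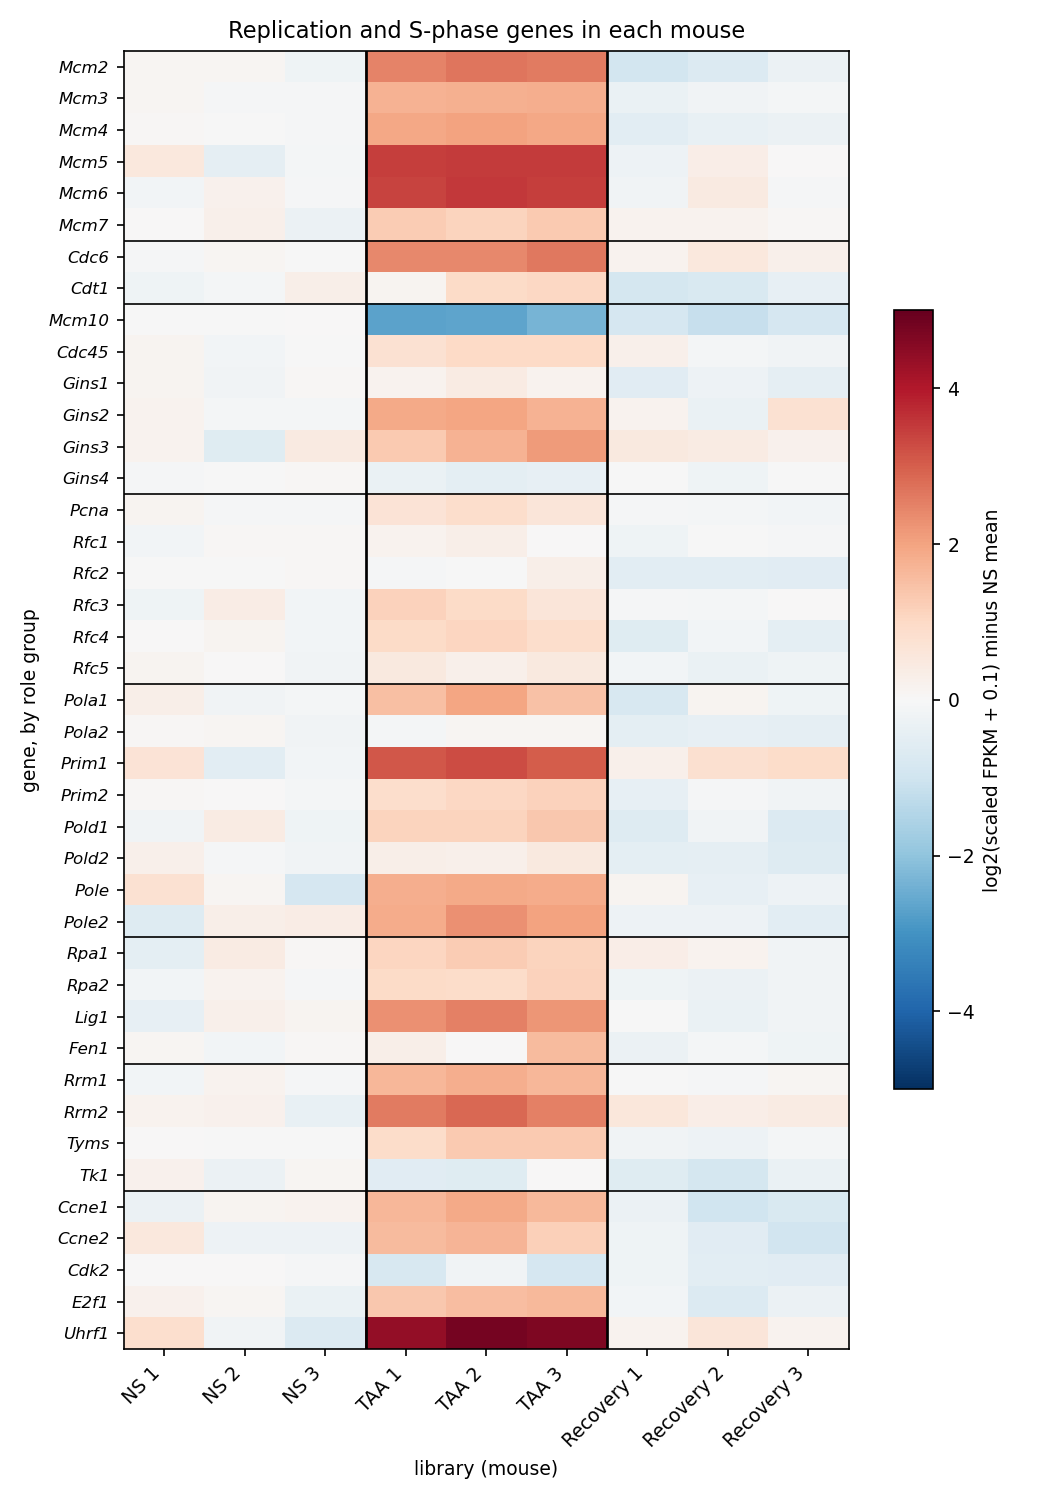
The log2 level of the 41 genes (rows, by role group) in each of the 9 mice (columns) relative to the mean of the control (NS) mice, from blue (lower) to red (higher). The 3 TAA columns are red for most rows, the Mcm10 row is blue there, and the recovery columns are pale.

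The 6 subunits of the helicase ring all rose with TAA and all fell in recovery, the only role group in which every gene did both. Mcm5, a ring subunit at the gate where the ring opens, had scaled FPKM of 0.682, 0.302 and 0.408 in the control mice, 5.86, 5.99 and 6.01 in the TAA mice, and 0.358, 0.587 and 0.445 in the recovery mice. All TAA values were above all others, and the control and recovery values overlapped. The fold change was 11.2 with TAA (log2 3.48, SE 0.24, adjusted p = 2.98e-05, limma) and 10.9 downwards in recovery (log2 -3.45, SE 0.17, adjusted p = 9.56e-06). Mcm6, another ring subunit, went from 0.929, 1.21 and 1.0 in the control mice to 11.6, 13.2 and 12.4 with TAA and was at 0.911, 1.44 and 1.01 in recovery. Its log2 fold change with TAA was 3.45 (adjusted p = 3.51e-06, limma).

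Mcm2, the third subunit by size of change, had 1.05, 1.05 and 0.825 in the control mice, 5.79, 6.64 and 6.39 in the TAA mice and 0.468, 0.568 and 0.780 in the recovery mice. All 3 recovery values were below all 3 control values, although the difference did not pass the test (log2 -0.62, adjusted p = 0.151, limma). Mcm3 and Mcm4 rose by 1.78 and 1.97 on the log2 scale. Mcm7 had the smallest rise of the ring, from 3.70, 4.44 and 2.99 to 9.07, 8.09 and 9.11 (log2 1.23, SE 0.15, adjusted p = 0.000424, limma), and had 4.13, 4.12 and 3.77 in recovery. It was the most abundant subunit per length in every control and recovery mouse. Mcm7 shares 557 exonic bases with other annotated genes, among them Cops6 and Ap4m1 on the opposite strand, and the counting was not stated to use strand. It also has a processed pseudogene copy that is 97.7% identical over 2157 bases, and reads may be shared with it.

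The ring holds 1 copy of each subunit, and the subunit mRNAs were closer to one another in the TAA mice. The ratio of the highest to the lowest of the 6 subunits, in scaled FPKM, was 5.43, 14.7 and 7.34 in the control mice, 2.31, 2.46 and 2.44 in the TAA mice, and 11.6, 7.24 and 8.47 in the recovery mice. The TAA ratios lay below all others. A two-sided exact permutation test gave p = 0.1 for TAA against control and for recovery against TAA, which is the smallest value that 3 against 3 mice can reach. Without Mcm7 the ratio was 3.88 ± 1.31 (SD, n = 3) in the control mice, 2.40 ± 0.0838 with TAA and 3.18 ± 0.561 in recovery, so that much of the difference came with that gene. With 0.1 added to the values, the ratios without Mcm7 overlapped, at 2.37, 4.15 and 3.30 in the control mice and 2.28, 2.43 and 2.41 in the TAA mice (exact permutation p = 0.3). The highest subunit was Mcm7 in each control and recovery mouse and Mcm6 in each TAA mouse. The lowest was Mcm5 in each control mouse and Mcm4 in each TAA mouse. This ratio was chosen after the values of the subunits were seen.

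**Figure D2:**
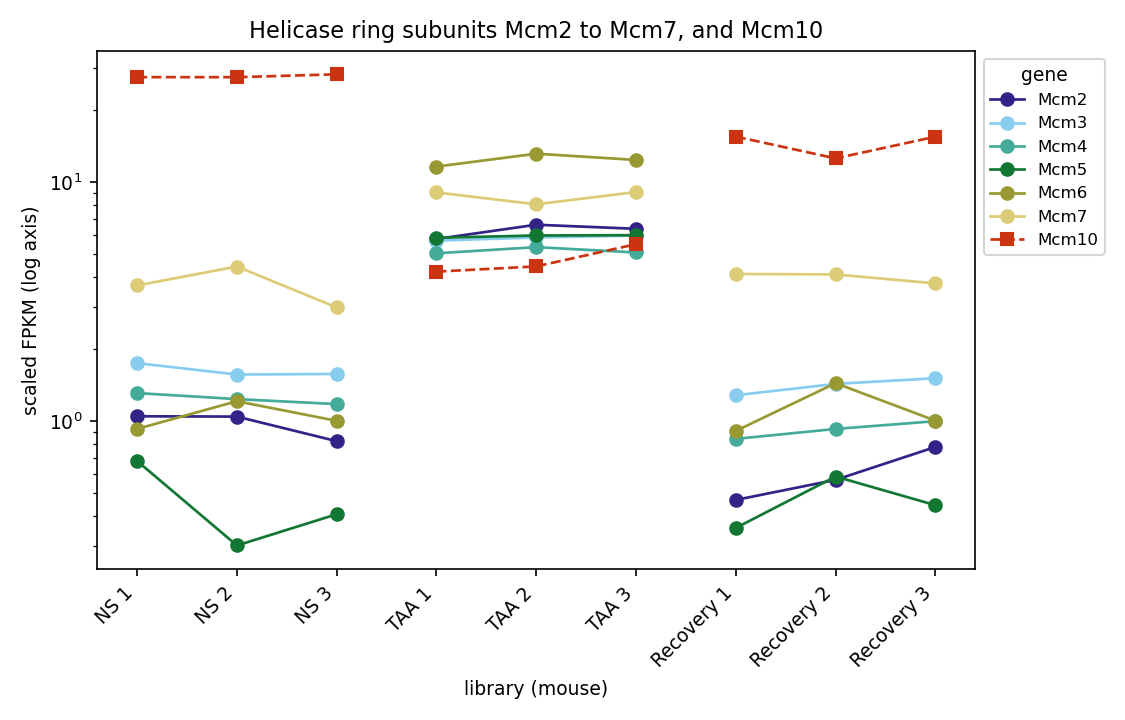
Scaled FPKM (log axis) of the 6 ring subunits (circles) and of Mcm10 (red squares) in the 9 mice; lines join the mice of a group, which have no order. In the TAA mice the ring subunits move up and together, with ratios of highest to lowest of 2.31 to 2.46. Mcm10 drops below all of them in TAA mice 1 and 2 and lies above Mcm4 alone in TAA mouse 3.

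Of the 2 loading factors, Cdc6 rose and Cdt1 did not pass the test in the TAA group. Cdc6, the ATPase that works with the origin recognition complex to load the ring, was close to the detection limit in the control mice, with 0.0110, 0.0254 and 0.0141 scaled FPKM, or about 1 to 4 fragments per library. It had 0.519, 0.512 and 0.621 in the TAA mice, or about 137 to 173 fragments, and 0.0333, 0.0692 and 0.0407 in recovery. The TAA values were far above the rest. Its log2 fold change of 2.48 with TAA (adjusted p = 7.39e-05, limma) depended on the value added to the FPKM, and was 4.42 with 0.01 and 0.61 with 1. A processed pseudogene copy of Cdc6 is 95.2% identical over 1528 bases. Cdt1, which brings the ring to the origin, had 1.80, 2.0 and 2.65 in the control mice, 2.31, 4.26 and 4.45 in the TAA mice and 1.1, 1.22 and 1.57 in the recovery mice. TAA mouse 1 lay within the control range, and the difference from the control group was 0.71 on the log2 scale (SE 0.27, adjusted p = 0.0568, limma). Without that mouse it was 1.005 (adjusted p = 0.0071), past the 2-fold limit. From TAA to recovery Cdt1 fell by 1.39 on the log2 scale (adjusted p = 0.00321, limma).

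The activators did not move together. Mcm10, a scaffold that binds the loaded ring and helps to start unwinding, was the most abundant of the 41 genes per length in the control mice, with 27.5, 27.5 and 28.3 scaled FPKM. It had 4.23, 4.45 and 5.51 in the TAA mice and 15.5, 12.6 and 15.5 in the recovery mice, so that the 3 groups did not overlap. It fell with TAA by 2.54 on the log2 scale (SE 0.12, adjusted p = 6.31e-06, limma), a 5.82-fold decrease, and rose 3.04-fold in recovery (log2 1.60, SE 0.14, adjusted p = 7.72e-05). The fall held under the 3 other scalings tried, with log2 values of -1.91, -2.41 and -1.72, while the rise in recovery was under 2-fold (log2 0.85) with FPKM rescaled to equal sums. In the recovery mice Mcm10 was still 0.94 lower than in the control mice on the log2 scale (adjusted p = 0.0138), short of the 2-fold limit. No exon of Mcm10 overlapped another gene in GENCODE M21, and with the exon lengths given there its values correspond to about 1689 to 6431 fragments per library. The annotation behind the deposited FPKM was not given, and where along Mcm10 the reads lie was not analysed here.

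The 4 GINS subunits, which form 1 complex with the ring and Cdc45, split in direction. Gins2 had 0.275, 0.211 and 0.204 in the control mice, 1.11, 1.21 and 0.983 in the TAA mice and 0.269, 0.160 and 0.456 in the recovery mice. It rose by 1.87 on the log2 scale (adjusted p = 0.000147, limma), but 2758 of its exonic bases are shared with Gse1 on the opposite strand. Gins3, with no such overlap, rose by 1.73 (adjusted p = 0.00332), but did not pass either threshold with quantile normalization (log2 0.84, adjusted p = 0.0595). Gins1 differed by 0.26 (adjusted p = 0.157). Gins4 had 8.23, 8.41 and 8.75 in the control mice, 6.64, 6.00 and 6.33 in the TAA mice and 8.35, 7.20 and 8.39 in the recovery mice. All TAA values of Gins4 were below all others. It was 0.42 lower with TAA on the log2 scale (adjusted p = 0.00657, below 2-fold), but this sign turned with the scaling and was positive, 0.21 and 0.40, with FPKM as deposited and with FPKM rescaled to equal sums. Per length, Gins4 stood 42.9 to 117 times above the lowest GINS subunit in the control mice and 6.44 to 12.1 times above it in the TAA mice. The lowest was Gins3 or Gins2, with about 6 to 19 and 24 to 26 fragments in the control libraries. With 0.1 added to the values, the ratios were 28.9 to 49.6 in the control mice and 5.94 to 10.4 in the TAA mice. Cdc45 had a log2 fold change of 0.90 (adjusted p = 0.00191), just short of 2-fold.

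None of the 6 clamp and clamp loader genes was a DEG with TAA in the limma test, and 4 of them had an unadjusted p under 0.05, beside 59.99% of all tested genes. With FPKM as deposited or rescaled to equal sums, Pcna, Rfc3, Rfc4 and Rfc5 were DEGs. Pcna, the sliding clamp that tethers the polymerases and a common marker of proliferation, had 16.8, 14.3 and 14.3 in the control mice, 24.1, 27.8 and 23.0 in the TAA mice, and 14.3, 14.2 and 13.9 in the recovery mice. All TAA values were above all others. Its 1.64-fold difference (log2 0.71, SE 0.11, adjusted p = 0.0012, limma) was below the 2-fold limit, and passed it under the other scalings, with log2 values of 1.35, 1.05 and 1.54. Pcna has a processed pseudogene copy that is 99.2% identical over 781 bases, and reads may be shared with it. The Rfc1 to Rfc5 proteins place the clamp on DNA. Rfc4 had 2.28, 2.47 and 2.03 in the control mice, 4.41, 4.81 and 4.18 in the TAA mice and 1.45, 2.03 and 1.58 in the recovery mice. Its log2 fold change of 0.96 with TAA was just under the limit, and it fell by 1.37 in recovery (adjusted p = 0.000259, limma). Rfc2 had 3.41, 3.45 and 3.59 in the control mice, 3.30, 3.40 and 4.34 in the TAA mice and 2.37, 2.38 and 2.31 in recovery. The control and TAA values of Rfc2 overlapped, with a log2 difference of 0.07 (adjusted p = 0.696) that changed sign with quantile normalization, and the recovery values were below both. Rfc2 shares 952 exonic bases with Lat2 on the opposite strand. The ratio of the highest to the lowest of the 5 loader subunits overlapped between the groups, with 2.62, 2.80 and 3.20 in the control mice and 2.14, 2.78 and 1.90 in the TAA mice (exact permutation p = 0.2).

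Of the 8 polymerase and primase genes, 6 rose with TAA and the same 6 fell in recovery. Prim1, the catalytic primase subunit that makes the RNA primers, had 0.638, 0.218 and 0.316 in the control mice, 3.85, 4.32 and 3.63 in the TAA mice and 0.455, 0.712 and 0.773 in recovery. The TAA mice were above all others, and the 8.74-fold rise (log2 3.13, SE 0.30, adjusted p = 0.000122, limma) was the steepest of the group. Pole2 and Pole, subunits of the leading strand polymerase, rose by 2.05 and 1.86 on the log2 scale. Pola1 and Pold1, the catalytic subunits of polymerases alpha and delta, rose by 1.65 and 1.20, with Pold1 short of 2-fold (log2 0.76) under quantile normalization. Prim2, the other primase subunit, rose by 1.03, and was at 0.98 and 0.97 without control mouse 3 or TAA mouse 3 and at 0.55 with quantile normalization. Their partners Pola2 and Pold2 did not pass the test in the TAA group. Pola2 had 3.0, 3.12 and 2.54 in the control mice, 2.65, 3.08 and 3.11 with TAA and 2.04, 2.17 and 2.07 in recovery. The control and TAA values overlapped (log2 0.03, adjusted p = 0.86), and the sign of this difference depended on the scaling. In the alpha-primase complex, the ratio of the highest to the lowest of the 4 subunits was 4.69, 14.3 and 8.04 in the control mice, 2.06, 2.07 and 1.63 in the TAA mice and 4.63, 3.04 and 2.90 in the recovery mice. The TAA ratios were the lowest, with exact permutation p = 0.1 against the control mice. Prim1 was the lowest subunit in each control mouse and the highest in each TAA mouse. The ratio thus largely restates the rise of Prim1 and is no separate support. As for the helicase ring, such ratios of the complexes were chosen after the values of the subunits were seen.

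The genes for single-strand binding and Okazaki fragment joining rose with the exception of Fen1. Lig1, the ligase that seals Okazaki fragments, had 0.661, 1.09 and 1.01 in the control mice, 4.81, 5.71 and 4.55 in the TAA mice and 0.881, 0.687 and 0.795 in recovery. It rose 5.10-fold with TAA (log2 2.35, SE 0.20, adjusted p = 7.09e-05, limma), and no TAA value overlapped another group. Rpa1 and Rpa2, subunits of the protein that coats single strands, rose by 1.15 and 1.01 on the log2 scale, close to the 2-fold limit, and were under it without some of the mice. Without control mouse 1 they stood at 0.92 and 0.94, and Rpa2 was also under the limit without control mouse 3 (0.99) or TAA mouse 3 (0.94) and with quantile normalization (0.94). From TAA to recovery Rpa1 fell by 1.04, and was short of 2-fold without TAA mouse 2 (-0.98) or recovery mouse 3 (-0.89). Fen1, the flap nuclease, had 1.58, 1.32 and 1.53 in the control mice, 1.81, 1.5 and 4.61 in the TAA mice and 1.17, 1.38 and 1.26 in recovery. The high mean in the TAA group came from TAA mouse 3 alone, and the log2 difference of 0.63 (SE 0.38, adjusted p = 0.194, limma) was 0.15 without that mouse. Fen1 shares 2039 exonic bases with Gm10143 and Tmem258 on the opposite strand.

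In nucleotide supply, the 2 subunits of ribonucleotide reductase and thymidylate synthase rose, and thymidine kinase 1 did not. Rrm2, the subunit whose level limits the enzyme in cycling cells, had 2.60, 2.67 and 1.75 in the control mice, 14.4, 17.7 and 13.8 in the TAA mice and 3.45, 2.95 and 3.09 in recovery. The 6.37-fold rise (log2 2.67, SE 0.18, adjusted p = 2.87e-05, limma) was the greatest of the group, and all 3 recovery values stayed above the control values (log2 0.44, adjusted p = 0.221). A processed pseudogene copy of Rrm2 is 95.5% identical over 419 bases. Rrm1 rose by 1.71 and Tyms by 1.17 on the log2 scale, with Tyms short of 2-fold (log2 0.87) under quantile normalization. Tk1, which salvages thymidine in S phase, had 9.13, 6.39 and 8.56 in the control mice, 5.34, 5.21 and 8.14 in the TAA mice and 5.11, 4.22 and 6.21 in recovery. The control and TAA values overlapped, and the log2 difference of -0.37 (adjusted p = 0.164, limma) turned positive, 0.25 and 0.44, with FPKM as deposited and rescaled to equal sums. Tk1 was no DEG in either comparison, although with FPKM rescaled to equal sums its fall in recovery reached the limit (log2 -1.001, adjusted p = 0.00414).

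Among the S-phase entry genes, both E cyclins, E2f1 and Uhrf1 rose, and Cdk2 did not. Uhrf1, which reads hemimethylated DNA behind the fork and recruits the maintenance methyltransferase Dnmt1, had 0.268, 0.0849 and 0.0292 in the control mice, 4.21, 5.63 and 5.19 in the TAA mice and 0.131, 0.211 and 0.130 in recovery. It had the steepest rise of the 41 genes with 0.1 added to the FPKM, 24.6-fold (log2 4.62, SE 0.37, adjusted p = 5.24e-05, limma), and fell 19.9-fold in recovery (adjusted p = 6.46e-06). With about 4 to 25 fragments in the control libraries, its log2 change was 5.62 with 0.01 added and 2.41 with 1 added. A processed pseudogene copy of Uhrf1 is 98.3% identical over 1590 bases. E2f1, a transcription factor that drives S-phase genes, had 0.913, 0.838 and 0.604 in the control mice, 2.15, 2.43 and 2.62 with TAA and 0.702, 0.450 and 0.622 in recovery. The TAA values stood above the rest (log2 1.51, SE 0.18, adjusted p = 0.000385, limma). Ccne1 and Ccne2, the E cyclins that pair with Cdk2, rose by 1.72 and 1.49 on the log2 scale. Ccne2 shares 609 exonic bases with Ints8 on the opposite strand. Cdk2 had 5.54, 5.51 and 5.21 in the control mice, 3.03, 4.77 and 2.95 with TAA and 4.64, 3.68 and 3.67 in recovery. It was 0.62 lower with TAA on the log2 scale (adjusted p = 0.0254, below 2-fold), but there was no such difference with FPKM as deposited (log2 0.00478), and with FPKM rescaled to equal sums it was 0.19 higher.

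**Figure D3:**
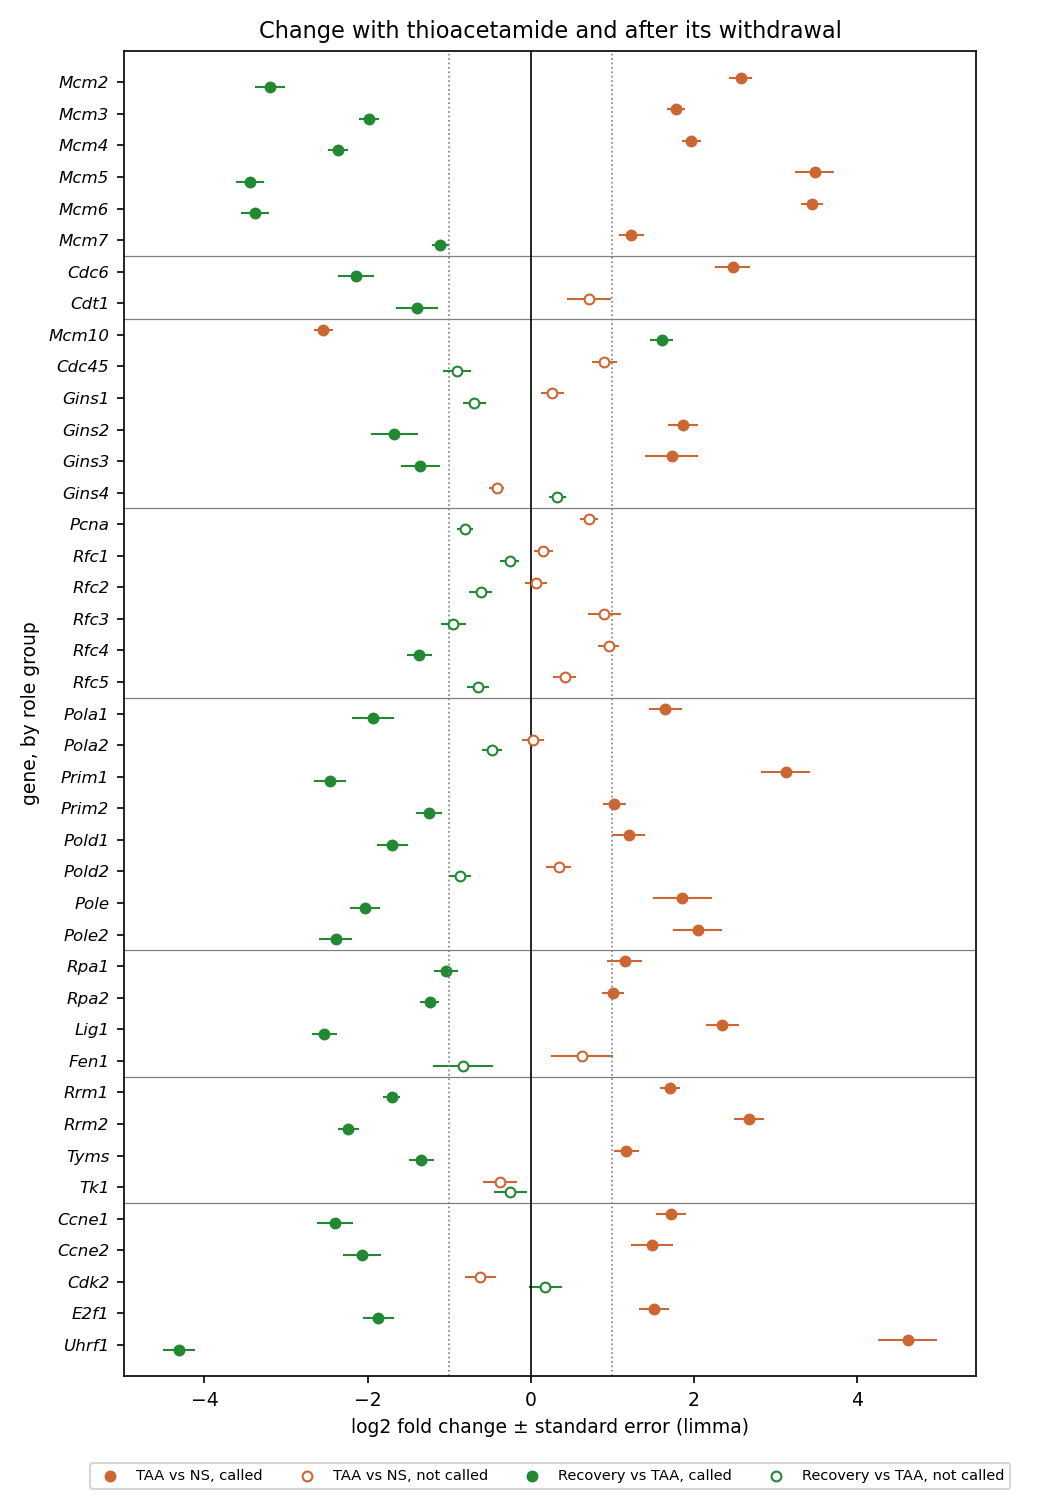
Log2 fold change with its standard error (limma) of the 41 genes for TAA against control (orange) and recovery against TAA (green); filled points passed an adjusted p under 0.05 and 2-fold, and dotted lines mark 2-fold. Orange points lie to the right and green points to the left for most genes, with Mcm10 the other way round; the signs of Gins4 and Cdk2 turned with the scaling.

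Genes with low levels in the control liver tended to have the greater changes. All 7 genes with a control mean under 0.5 scaled FPKM rose with TAA, with a median log2 fold change of 2.48. That median is the value of Cdc6, which was under 0.1 in every control and recovery mouse. Cdc6 passed the filter on low values only through the TAA mice, so its rise is no independent support. Of the 16 genes between 0.5 and 2, 13 rose (median 1.58), and of the 18 genes above 2, 5 rose (median 0.56). Across the 41 genes, the log2 fold change and the log2 control mean had a Pearson r of -0.72 and a Spearman rho of -0.76, and without Mcm10 these were -0.68 and -0.75. Both measures use the same control libraries, which by itself ties them together, and genes are not independent replicates. The 14 genes with an E2F match in the promoter window had a median log2 fold change of 1.75 with TAA, and 11 of them were DEGs. The 19 genes with a window but no match had a median of 0.96, and 9 of them were DEGs. The 3 genes with a match that were not DEGs were Rfc3 (log2 0.90), Cdt1 (0.71) and Cdk2 (-0.62), whereas Prim1, Rrm2 and E2f1 rose without a match in the window. The windows of E2f1, Cdc45 and Tk1, all without a match, lay inside the annotated locus and did not reach its start. For E2f1 the window ended at 154569676 and the GENCODE M21 start was at 154569892. The sequence before these starts was not searched.

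**Figure D4:**
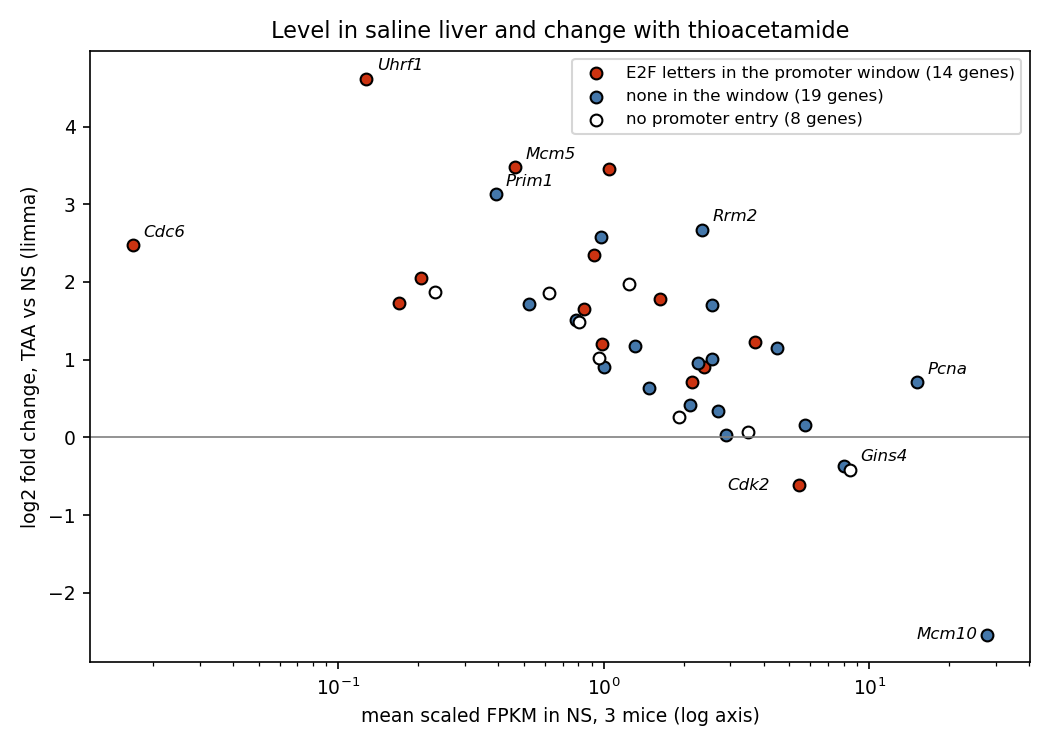
Log2 fold change of TAA against control for the 41 genes over their mean scaled FPKM in the 3 control mice (log axis), coloured by whether the promoter window holds an E2F match. The points run from Uhrf1 at the upper left, with a change of 4.62, to Mcm10 at the lower right, with -2.54.

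In the recovery group against the control group, none of the 41 genes was a DEG in either direction, beside 0.582% of all tested genes higher and 0.412% lower (limma). By adjusted p alone, 2 were lower, Mcm10 and Rfc2 (log2 -0.55, adjusted p = 0.0479), and none was higher, beside 1.38% and 1.33% of all tested genes. At an unadjusted p under 0.05 there were 12 of 41, beside 23.0% of all tested genes. Rfc2, whose exon overlap with Lat2 is given above, was named here after its values were seen and did not pass with FPKM as deposited (adjusted p = 0.0733) or rescaled to equal sums (adjusted p = 0.0652). The median log2 fold change of the 41 genes was -0.20, with 30 of 41 below 0. That of all tested genes, which the scaling holds near 0, was 0.01. In 15 of the 41 genes all recovery mice were below all control mice, beside 15.6% of all tested genes, and in 2 genes, Cdc6 and Rrm2, all were above, beside 14.6%.

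Seen by mouse, 21, 21 and 23 of the 41 genes lay below the lowest control mouse in recovery mice 1, 2 and 3. That was 51.2%, 51.2% and 56.1% of the genes, where 30.3%, 31.4% and 31.1% of all tested genes lay below. The median of the 41 genes relative to the control mean was -0.21, -0.23 and -0.19 on the log2 scale in the 3 recovery mice and 1.14, 1.27 and 1.29 in the 3 TAA mice. The 16 mitosis markers stood at another level in the same livers. Their median was 3.43, 3.64 and 3.24 in the TAA mice and 0.68, 0.52 and 1.24 in the recovery mice. All 16 rose with TAA and 15 fell in recovery, beside 17.0% of all tested genes higher and 14.3% lower. Against the control group 14 of 16 had a positive log2 fold change in recovery (median 0.79). Top2a, the topoisomerase that untangles sister chromatids, was the only DEG of the 16 there (log2 1.22, adjusted p = 0.0216, limma), beside 0.582% of all tested genes higher. Mki67, the proliferation marker Ki-67, had 0.104, 0.184 and 0.145 in the control mice, 4.11, 6.33 and 4.14 with TAA and 0.363, 0.525 and 0.863 in recovery. All recovery values of Mki67 were above the control values (log2 1.43, adjusted p = 0.0612). The difference between the 2 lists was not tested.

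**Figure D5:**
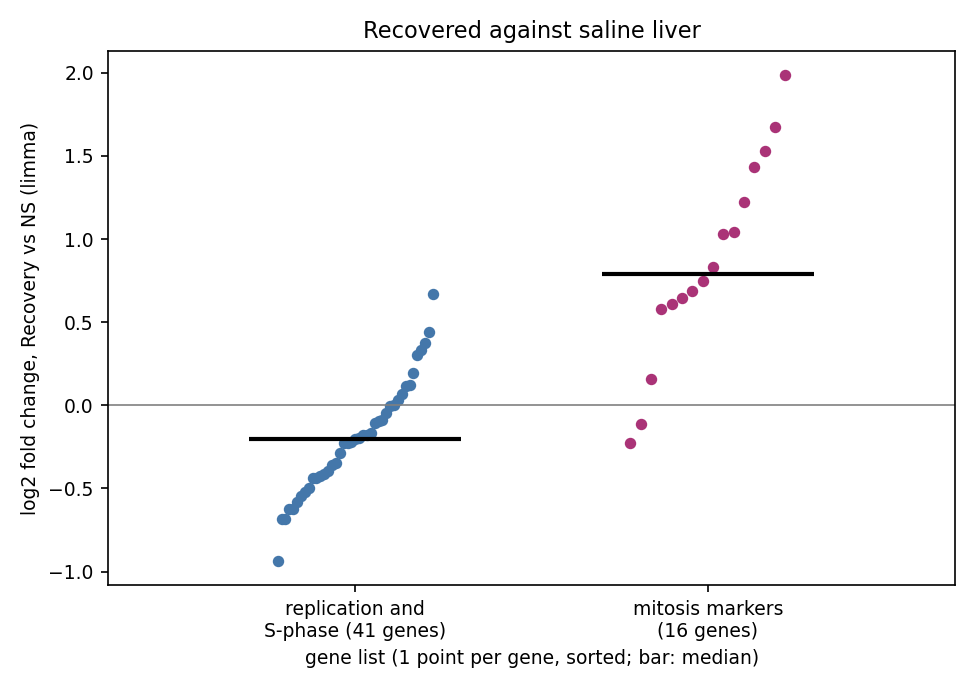
Log2 fold change of recovery against control (limma) for each of the 41 replication and S-phase genes and each of 16 mitosis markers, sorted within a list, with a bar at the median. The replication genes have a median of -0.20 and the mitosis markers of 0.79.

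Other genes of the same pathways were grouped in lists fixed by symbol, and some moved with the 41. Beside them, 17.0% of all tested genes were DEGs higher with TAA and 8.02% were lower. No list was tested as a set. Of the 14 genes for origin recognition and firing, 5 rose with TAA. The greatest rise was that of Ticrr, which helps Cdc45 to join the ring (log2 2.08, adjusted p = 0.000162, limma), while Orc5, a subunit of the origin recognition complex, had -0.41 (adjusted p = 0.0112, below 2-fold). Of 20 genes for fork protection and checkpoint, 10 rose, led by the checkpoint adaptor Clspn (log2 3.03), while the nuclease Dna2 had -0.77. Of 9 genes for chromatin assembly behind the fork, 7 rose, led by the remodeller Hells (log2 2.69), and Asf1a had the smallest value (0.20). None of 8 other polymerase, RPA and Mcm-related subunits was a DEG with TAA in the limma test (6 had an unadjusted p under 0.05, beside 59.99% of all tested genes), with values from 0.79 in Rpa3 to -0.73 in Pole4. Of 15 other genes of nucleotide supply, 4 rose and 2 fell, with the deaminase Dctd at 2.88 and the mitochondrial thymidine kinase Tk2 at -1.15.

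Upstream of S phase, the lists are given beside the 17.0% of all tested genes that were DEGs higher with TAA. Of 12 genes of the E2F family and pocket proteins, 3 rose with TAA. The repressor E2f7 had the greatest rise (log2 2.81, adjusted p = 7.49e-05, limma), and the pocket protein Rbl2 had -0.98 (below 2-fold). Of 10 measured genes in a list of cyclins, kinases and other regulators around G1 phase, 5 rose. The greatest rise was that of cyclin A2 (Ccna2, log2 4.39), which acts in S and later phases and not in G1, and the lowest value was that of cyclin D3 (Ccnd3, -1.07, adjusted p = 0.0648). Of 7 cell cycle inhibitors, 4 rose with TAA. Cdkn1a, which encodes the kinase inhibitor p21, had 0.870, 1.04 and 0.969 in the control mice, 27.2, 34.4 and 37.8 in the TAA mice and 9.47, 16.8 and 20.3 in the recovery mice. The 3 groups did not overlap. Cdkn1a rose with TAA by 4.96 on the log2 scale (adjusted p = 1.65e-06, limma) and fell by 1.15 in recovery (adjusted p = 0.00856). In recovery it remained 3.81 above the control group (adjusted p = 0.00776). Of the 7 inhibitors, 2 were DEGs higher in recovery than in control, beside 0.582% of all tested genes.

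The libraries differed in more than these genes. Depth, estimated from the steps between low FPKM, was 26.9 to 40.3 M fragments per library, and the size factors ranged over 0.827 to 0.878 (control), 1.29 to 1.38 (TAA) and 0.893 to 0.907 (recovery). Hepatocyte markers were abundant in every library, and 4 of 8 fell with TAA. Their summed scaled FPKM went from 39865 to 44054 in the control mice to 22644 to 29769 in the TAA mice. The size of this fall rests on the size factors, which shifted TAA relative to control by -0.64 (log2). Marker counts and sums under the other scalings are not given here. With the replication genes rose all 6 cholangiocyte markers, whose sum went from 15.7 to 21.0 up to 295 to 443, and 7 of 8 stellate cell and myofibroblast markers, from 35.2 to 42.5 up to 208 to 267. Of 7 macrophage and monocyte markers, 3 rose. Beside these marker counts, 17.0% of all tested genes were DEGs higher with TAA and 8.02% were lower. No defining marker of these lists was at 0 in every library, and the part of these cell types in the changes of the 41 genes was not tested. Skeletal muscle markers summed to 36.6 scaled FPKM in TAA mouse 3 and to at most 0.426 in the other libraries. Without TAA mouse 3, 25 of the 41 genes rose with TAA and 28 fell in recovery. The same fits gave 2252 of all 14094 tested genes higher with TAA and 1917 lower in recovery. Without the 11 of the 41 genes whose exons overlap another gene of the table, 21 of the remaining 30 rose and 22 fell. This stands beside 17.0% of all tested genes higher with TAA and 14.3% lower in recovery.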

How the data were processed

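Liver mRNA of 9 mice was sequenced by the authors, 3 mice per group, and groups were taken from the labels. The authors mapped the reads to mm10 with HISAT2 2.2.1, counted them on genes with featureCounts 1.5.0-p3 and deposited the values as FPKM. FPKM are divided by the mapped fragments of each library, and no other scaling between libraries is stated. The annotation release and the use of strand are not given in the sources used here. Read counts were not analysed here. Between 40.4% and 44.4% of the low values per library came out as whole fragments (tolerance 0.08), too few for a count test.

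Size factors by the median of ratios, over genes above 0 in all 9 libraries, were applied to the FPKM and shifted TAA relative to control by -0.64 (log2). Each pair of groups was tested in R 4.3.3 with limma 3.58.1 (lmFit, then eBayes with its trend option) after adding 0.1 and taking log2, over the 14094 genes whose mean FPKM reached 0.1. P values were adjusted by Benjamini-Hochberg over these genes. All 41 genes passed this filter, Cdc6 only through the TAA mice, and were above 0 in all 9 libraries. DEGs passed 0.05 on the adjusted p and 2-fold in size, which are the limits of the study. The study itself used DESeq2 and not limma on FPKM, so its calls can differ. Other tools were Python 3.11.15, pandas 2.3.3, numpy 2.4.6 and BLAST+ 2.17.0+ for similar copies. Of these steps, only the limma fit of TAA against control was tested on simulated data. The genes changed there were not of low level, so changes of genes such as Cdc6 were not covered.

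The members, role groups and gene lists were chosen with earlier results of these data known. Values per mouse are given for the gene with the greatest and the smallest fitted change in each role group, for Pcna, E2f1 and Uhrf1, and for DEGs lower with TAA. Of the other lists, the genes with the greatest rise and fall, Cdkn1a and Mki67 are named. Mcm2, Mcm6, Gins4, Rfc2 as a result of recovery against control, and Top2a were named after their values were seen. Exon overlaps are from GENCODE M21, where the locus was identical for 39 of the 41 genes. Cdk3 of the G1 list was not analysed here. Alternatives concerned the added value, filter, scaling, fit, moderation, test, mouse numbers, single mice and call rule.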

Additional observations from a re-analysis of the deposited data

How the results depend on the processing

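With 1 added to the FPKM in place of 0.1, 14 of the 41 genes rose with TAA and 17 fell in recovery, and 1780, 1460 and 80 of all tested genes were DEGs in TAA against control, recovery against TAA and recovery against control, where 3520, 3017 and 140 were DEGs with 0.1. The median log2 fold changes of the 41 genes were then 0.77, -0.92 and -0.11, and with 0.01 added the median in recovery against TAA was -1.45. With FPKM as deposited the 3 medians were 1.80, -1.91 and -0.13, with FPKM rescaled to equal sums 1.98, -2.11 and -0.14, and with quantile normalization 1.02, -1.18 and -0.25. The first 2 of these scalings moved the median of all tested genes in TAA against control to 0.63 and 0.81. Rescaling to equal sums gave 5819 and 5166 DEGs in TAA against control and recovery against TAA, and 0 of the 41 genes rose in recovery against TAA, since Mcm10 was then under 2-fold. In TAA against control Gins4 was at 0.21 and 0.40 and Cdk2 at 0.00478 and 0.19 with FPKM as deposited and rescaled to equal sums. In recovery against TAA Gins4 was at -0.23 and -0.43, and Cdk2 at -0.57 with FPKM rescaled to equal sums. Of the DEGs among the 41, 21 of 26 and 25 of 28 were DEGs under every scaling. With TAA, Gins3, Prim2, Pold1, Rpa2 and Tyms lost the call with quantile normalization, as did Gins3 and Prim2 in recovery against TAA. A mean FPKM of at least 1 gave 2204 and 1895 DEGs in these comparisons over fewer tested genes. By adjusted p alone there were 7683, 7121 and 381 in the 3 comparisons. Of the 41 genes, 3 were then lower with TAA, 2 higher in recovery against TAA and 2 lower in recovery against control. In recovery against control, DEGs numbered 48 without the filter, 235 in a fit on all 9 libraries, 85 without the trend and 8 with limma's treat against 1.5-fold; none of these is a count of the 41 genes, of which 0 were DEGs there. The ratio of the highest to the lowest ring subunit, an alternative chosen after seeing the data, was 3.88 and 3.18 without Mcm7 in the control and recovery groups, where it was 9.16 and 9.09 with it.

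With the replicate number as a block, 25 of the 41 genes rose with TAA and 27 fell in recovery, as without it. Of all 14094 tested genes, 2383 were DEGs higher with TAA and 2019 lower in recovery, and 17 were DEGs in recovery against control. The replicate numbers do not pair the mice, since the labels give no shared animal or batch and the correlation of same-numbered mice was -0.07 to 0.12. In no comparison did every mouse correlate best with its own number. With each mouse left out in turn, 23 to 27 of the 41 genes rose with TAA and 26 to 28 fell in recovery. These fits gave 2252 to 2414 of all 14094 tested genes higher with TAA and 1901 to 2102 lower in recovery. The medians of the 41 genes were 1.16 to 1.36, -1.55 to -1.28 and -0.24 to -0.16. Recovery against control gave 32 to 106 DEGs, none of the 41 among them. The fewest, 32, 36 and 39, were found without recovery mouse 2, control mouse 3 and recovery mouse 3. Prim2, Rpa1 and Rpa2 lost the call with TAA in some of these fits, and Rfc3 and Rfc4 gained it without control mouse 2 or TAA mouse 3. In recovery against TAA, Rpa1 lost it, and Cdc45 (without recovery mouse 1), Fen1 (without TAA mouse 2) and Rfc3 (without TAA mouse 3) gained it. The cause of these differences was not tested. Genes under about 0.1 scaled FPKM, such as Cdc6 in the control mice, rest on few fragments, and the size of their fold change is set by the value added.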
